A study of Homo sapiens with 6 samples.

Results

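The genes examined here make, move and dispose of cholesterol. They were the 29 rows, of 58735 in the deposited gene table, whose symbol is on a list of mevalonate pathway, sterol synthesis, uptake and efflux genes, and all 29 passed the filter on low counts. No measured value enters this rule. By role it held 7 enzymes of the mevalonate pathway, 11 enzymes from squalene to cholesterol, 3 genes that control the transcription factor SREBP-2, 3 genes of sterol transport and storage, and 5 genes of the LXR receptors and cholesterol export.

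Gene expression was measured by RNA sequencing in AsPC-1 cells, an established pancreatic cancer line of human origin. The Vector group (n = 3) is labelled WT and received an empty virus, and the OE-MMP28 group (n = 3) received a virus that carried MMP28, which encodes a secreted matrix metalloproteinase. Per the study's methods the lentivirus also carried GFP and puromycin resistance, and infected cells were selected with puromycin, so both groups share infection and selection. The promoter that drove MMP28, and whether the selected cells were pools or single clones, are not given in the sources used here. Nothing in the labels says that the 3 libraries of a group came from separate cultures, so the p-values measure the spread between these libraries, which may be technical.

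Cells build cholesterol from acetyl-CoA. The mevalonate pathway yields isoprenoid units that are joined to farnesyl pyrophosphate, and squalene synthase then commits this intermediate to the sterol branch, which runs through lanosterol to cholesterol. When sterols are scarce, SCAP escorts SREBP-2 from the endoplasmic reticulum to the Golgi, where proteases release the active factor and the genes of synthesis and uptake are transcribed. When sterols are plentiful, INSIG proteins hold SCAP back, and oxysterols activate the LXR receptors, which raise genes of cholesterol export.

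The libraries held 13633249 to 16691458 counts. Mitochondrial genes took 11.9% to 14.8% of the counts in the Vector libraries and 8.80% to 11.9% in the OE-MMP28 libraries. MMP28 was at 5.17, 9.11 and 8.43 FPKM (fragments per kilobase of the gene, relative to library size) in Vector replicates 1, 2 and 3 and at 13.1, 13.9 and 15.1 FPKM in OE-MMP28 replicates 1, 2 and 3, a log2 fold change of 0.90 (SE 0.19, adjusted p = 0.00226, edgeR quasi-likelihood test). A two-sided exact permutation test of the 3 against 3 FPKM values gave p = 0.1, the smallest this design allows. Of the markers of pancreatic ductal carcinoma cells, KRT8, KRT18, KRT19 and EPCAM lay between 260.4 and 1455 FPKM, CDH1 between 10.9 and 22.0 FPKM and KRT7 at no more than 2.22 FPKM. Of these 6 markers KRT19 was called higher (587 to 654 FPKM in the Vector group and 858 to 1132.5 FPKM in the OE-MMP28 group, log2 fold change 0.71, adjusted p = 0.00175, edgeR) and CDH1 lower (17.3 to 22.0 and 10.9 to 14.8 FPKM, log2 fold change -0.59, adjusted p = 0.0113). Their part in the results for the cholesterol genes was not tested. The fibroblast genes COL1A1, COL1A2, COL3A1 and DCN, the macrophage genes PTPRC, CD163 and CSF1R and the endothelial gene CDH5 reached at most 11 counts in any library, whereas the fibroblast marker LUM was at 33.8 to 56.9 FPKM in all 6. The remaining macrophage marker CD14 had 17 to 30 counts and the endothelial marker VWF 7 to 19, and PECAM1 had 0 to 4 counts in the Vector libraries and 13 to 30 in the OE-MMP28 libraries.

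Of the 29 cholesterol genes, 3 were higher and 5 were lower in OE-MMP28 cells at an adjusted p under 0.05 (edgeR, adjusted over 15319 genes). The phosphomevalonate kinase gene PMVK, the LXR-beta gene NR1H2 and the exporter gene ABCA1 rose. The lower genes were MVD and IDI1 of the mevalonate pathway, FDFT1 and SQLE, which encode the enzymes that make and oxidise squalene, and SREBF2, which encodes SREBP-2. Over all genes tested, 11.7% were called higher and 11.6% lower, and among the cholesterol genes 10.3% were called higher and 17.2% lower. In either direction 27.6% of the cholesterol genes were called, beside 23.4% of all genes tested. Requiring in addition an absolute log2 fold change above 1 left ABCA1 alone, 3.45% of the 29, where 7.38% of all genes met both conditions. With every library of a group above every library of the other, 3 cholesterol genes (10.3%) were higher in OE-MMP28 cells, beside 19.5% of all genes, and 8 (27.6%) were lower, beside 18.6% of all genes. The share called higher lay close to that of all genes. The share called lower, at 5 of 29 genes, was somewhat above it, and the difference from the background was not tested. In such bulk libraries fewer cells that express a gene and less RNA per cell cannot be told apart.

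**Figure D1:**
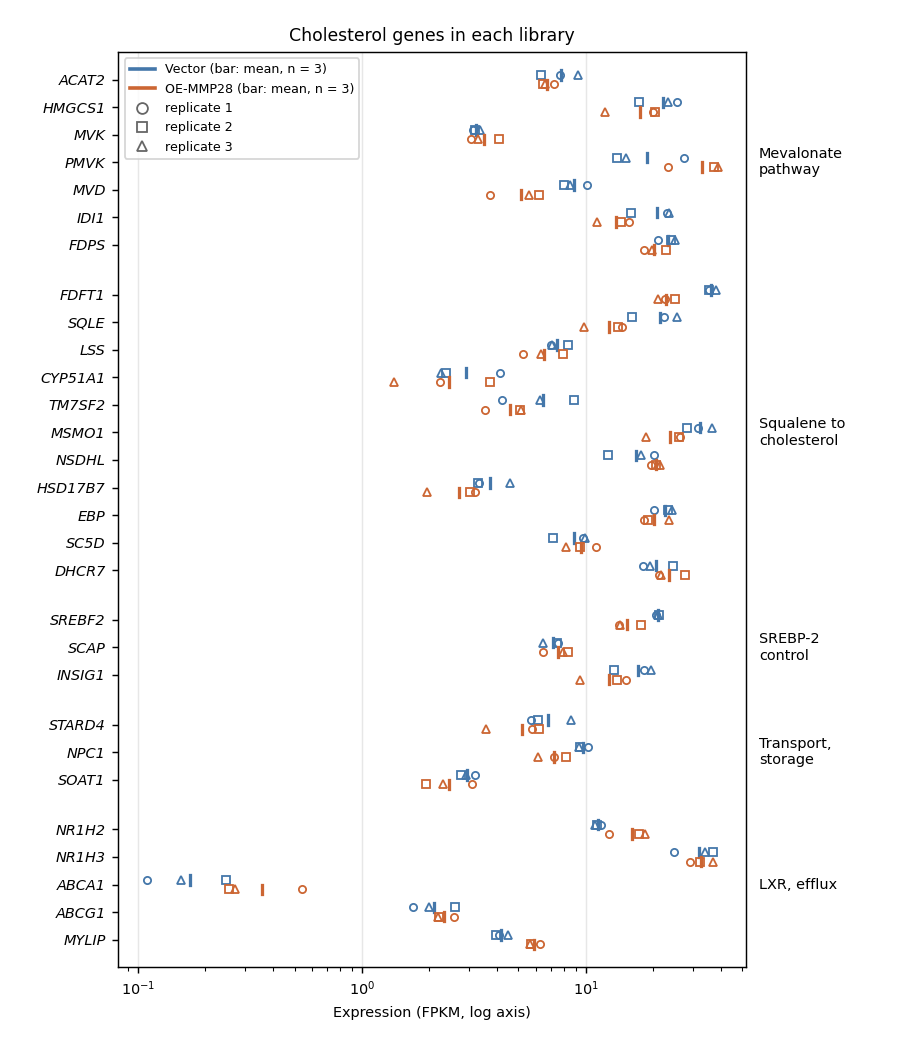
Expression of the 29 cholesterol genes in each library, in FPKM on a log axis, with Vector in blue and OE-MMP28 in orange, the replicate number as the marker shape and the mean of 3 libraries as a bar. FDFT1 and SREBF2 show Vector libraries that lie close together and above all OE-MMP28 libraries, and ABCA1 lies far below every other gene, at 0.109 to 0.540 FPKM.

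The changes were small in size. The median log2 fold change of the 29 genes was -0.19 (18 below 0 and 11 above), and that of all genes tested was 0.01. The 18 synthesis enzymes had 13 values below 0 and a median of -0.22, and of these 18 genes 1 was called higher and 4 lower. All 5 genes of the LXR group had values above 0, with a median of 0.49, and 2 of them were called higher. The 3 transport and storage genes all had values below 0, and none was called. The plot of fold changes by role gives these values with their intervals.

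**Figure D2:**
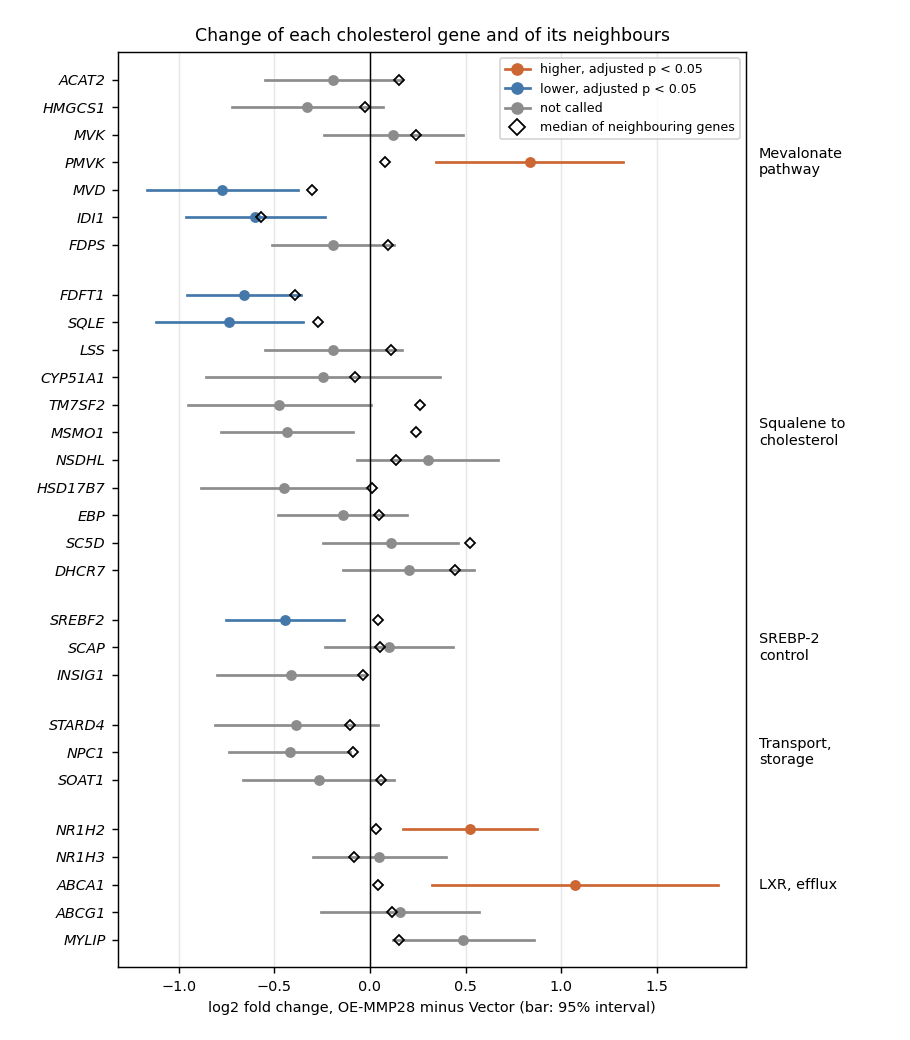
The log2 fold change (OE-MMP28 minus Vector) of each cholesterol gene with its 95% interval, coloured by the call at an adjusted p under 0.05, and as open diamonds the median log2 fold change of the other genes tested within 5 Mb on either side. IDI1 lies on its neighbours' median, and PMVK, SREBF2, NR1H2 and ABCA1 lie away from neighbours whose medians are between 0.03 and 0.08.

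In the mevalonate pathway the calls went in both directions. MVD encodes the decarboxylase that forms isopentenyl pyrophosphate, the first isoprenoid unit (ENSG00000167508, chr16:88651935-88663161, minus strand, GRCh38). Its level was 10.1, 7.97 and 8.52 FPKM in Vector replicates 1, 2 and 3 and 3.71, 6.15 and 5.54 FPKM in OE-MMP28 replicates 1, 2 and 3. The groups did not overlap, and OE-MMP28 replicate 1 was the lowest. The mean went from 8.85 ± 1.09 to 5.14 ± 1.27 FPKM (SD, n = 3), and the log2 fold change was -0.77 (SE 0.19, adjusted p = 0.00603, edgeR). MVD was called lower with each library left out in turn.

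IDI1 encodes the isomerase that turns isopentenyl pyrophosphate into its allylic partner (ENSG00000067064, chr10:1039152-1049170, minus strand). It was at 23.1, 15.9 and 23.4 FPKM in Vector replicates 1, 2 and 3 and at 15.5, 14.3 and 11.2 FPKM in OE-MMP28 replicates 1, 2 and 3. All Vector libraries lay above all OE-MMP28 libraries, though Vector replicate 2 lay just above OE-MMP28 replicate 1. The log2 fold change was -0.60 (SE 0.17, adjusted p = 0.0167, edgeR). The call was lost without Vector replicate 3 (adjusted p = 0.0959), OE-MMP28 replicate 2 (0.0528) or OE-MMP28 replicate 3 (0.0884). The antisense gene IDI2-AS1, with 1 to 5 counts, covers 14.8% of its exons.

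PMVK, whose product adds the second phosphate to mevalonate, went the other way (ENSG00000163344, chr1:154924734-154936991, minus strand). Its level was 27.4, 13.8 and 15.1 FPKM in Vector replicates 1, 2 and 3 and 23.4, 37.3 and 38.8 FPKM in OE-MMP28 replicates 1, 2 and 3. The groups overlapped, because Vector replicate 1 lay above OE-MMP28 replicate 1. The mean went from 18.8 ± 7.51 to 33.1 ± 8.50 FPKM (SD, n = 3), and the log2 fold change was 0.84 (SE 0.23, adjusted p = 0.0139, edgeR). The call was lost without Vector replicate 3 (adjusted p = 0.0570), OE-MMP28 replicate 2 (0.0788) or OE-MMP28 replicate 3 (0.0858).

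The other 4 genes of the pathway were not called. MVK, which encodes mevalonate kinase, was at 3.12, 3.20 and 3.38 FPKM in Vector replicates 1, 2 and 3 and at 3.07, 4.11 and 3.29 FPKM in OE-MMP28 replicates 1, 2 and 3, with overlapping groups and a log2 fold change of 0.12 (95% interval -0.24 to 0.49). HMGCS1, the synthase that makes hydroxymethylglutaryl-CoA, had a log2 fold change of -0.33 (95% interval -0.72 to 0.07). The thiolase gene ACAT2 stood at -0.19 (95% interval -0.55 to 0.17) and the farnesyl pyrophosphate synthase gene FDPS at -0.19 (95% interval -0.51 to 0.13). The intervals of HMGCS1, ACAT2 and FDPS reach below -0.44, the value of SREBF2 in the same fit. The values of ACAT2 and FDPS are uncertain for another reason. Genes on the opposite strand cover parts of their exons, TCP1 (2431 to 5069 counts) 9.23% of ACAT2 and RUSC1-AS1 (282 to 500 counts) 18.6% of FDPS, and the sources used here do not say whether reads were counted by strand.

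From squalene to cholesterol the called genes were the first 2 steps. FDFT1 encodes squalene synthase, the enzyme that commits farnesyl pyrophosphate to sterols (ENSG00000079459, chr8:11795573-11839309, plus strand). It was at 35.3, 35.4 and 38.1 FPKM in Vector replicates 1, 2 and 3 and at 22.5, 24.9 and 21.0 FPKM in OE-MMP28 replicates 1, 2 and 3. The groups were far apart relative to the spread within them. The mean went from 36.3 ± 1.56 to 22.8 ± 1.95 FPKM (SD, n = 3), and the log2 fold change was -0.66 (SE 0.14, adjusted p = 0.00251, edgeR), the smallest adjusted p of the 29 genes. The call held with each library left out in turn.

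SQLE encodes squalene epoxidase, a rate-limiting enzyme of the sterol branch (ENSG00000104549, chr8:124998497-125022283, plus strand). Its level was 22.4, 16.0 and 25.6 FPKM in Vector replicates 1, 2 and 3 and 14.5, 13.8 and 9.83 FPKM in OE-MMP28 replicates 1, 2 and 3. There was no overlap, with Vector replicate 2 nearest to the OE-MMP28 libraries. The mean went from 21.3 ± 4.85 to 12.7 ± 2.54 FPKM (SD, n = 3), and the log2 fold change was -0.74 (SE 0.18, adjusted p = 0.00673, edgeR). Without Vector replicate 3 the adjusted p was 0.0557.

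The 9 later enzymes were not called in either direction. MSMO1, which encodes a methylsterol oxidase, came closest: 31.6, 28.4 and 36.5 FPKM in Vector replicates 1, 2 and 3 and 26.4, 26.1 and 18.6 FPKM in OE-MMP28 replicates 1, 2 and 3. The groups did not overlap, and the log2 fold change was -0.43 (SE 0.17, adjusted p = 0.0636, edgeR). MSMO1 was called lower in 6 of 17 alternatives. It passed the threshold without Vector replicate 2 (adjusted p = 0.0350, edgeR) and without OE-MMP28 replicate 1 (0.0448). The same held with upper-quartile scaling (0.0357), in DESeq2 (0.0474) and without mitochondrial genes (0.0493). The last was the fit relative to neighbouring genes, given below. HSD17B7, a sterol ketoreductase gene, also had groups that did not overlap (3.28 to 4.59 and 1.95 to 3.19 FPKM, log2 fold change -0.45, adjusted p = 0.131, edgeR). Its pseudogene HSD17B7P2 had 28 to 74 counts beside 157 to 323 for HSD17B7, so reads that match both make the value uncertain. The sterol reductase gene TM7SF2 had a log2 fold change of -0.47 (95% interval -0.95 to 0.004). Left out, Vector replicate 1 moved it to -0.70 (adjusted p = 0.0158, edgeR) and Vector replicate 2 to -0.18 (adjusted p = 0.615).

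The lanosterol synthase gene LSS (-0.19), the sterol isomerase gene EBP (-0.14) and the lanosterol demethylase gene CYP51A1 (-0.24) had log2 fold changes below 0 whose 95% intervals included 0. CYP51A1 was at 4.12, 2.37 and 2.25 FPKM in the Vector libraries and at 2.24, 3.71 and 1.39 FPKM in the OE-MMP28 libraries, in the order of their replicate numbers. The annotated gene AC000120.2, with 0 counts in all libraries, covers 79.4% of the CYP51A1 exons on the same strand, so the level of CYP51A1 depends on how reads in shared exons were counted.

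Of these 11 enzymes, 3 had log2 fold changes above 0. NSDHL, a sterol dehydrogenase gene, was at 20.1, 12.6 and 17.6 FPKM in Vector replicates 1, 2 and 3 and at 19.6, 20.6 and 21.4 FPKM in OE-MMP28 replicates 1, 2 and 3, a log2 fold change of 0.30 (95% interval -0.07 to 0.67). SC5D, a sterol desaturase gene, was at 9.67, 7.13 and 9.87 FPKM and at 11.04, 9.39 and 8.15 FPKM in the same order, a log2 fold change of 0.11 (95% interval -0.25 to 0.46). DHCR7, whose product forms cholesterol in the last step of one route, was at 17.97, 24.4 and 19.4 FPKM and at 21.1, 27.7 and 21.8 FPKM, a log2 fold change of 0.20 (95% interval -0.14 to 0.55). In all 3 genes the groups overlapped.

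Of the genes that control SREBP-2, the gene of the factor itself was lower. SREBF2 (ENSG00000198911, chr22:41833079-41907308, plus strand) was at 20.6, 21.2 and 21.0 FPKM in Vector replicates 1, 2 and 3 and at 14.1, 17.6 and 14.2 FPKM in OE-MMP28 replicates 1, 2 and 3. The Vector libraries were nearly equal, and all 3 OE-MMP28 libraries lay below them. The mean went from 20.9 ± 0.304 to 15.3 ± 1.99 FPKM (SD, n = 3), and the log2 fold change was -0.44 (SE 0.15, adjusted p = 0.0347, edgeR). This call needed nearly all libraries: it held without OE-MMP28 replicate 2 (adjusted p = 0.0411) and was lost without Vector replicate 1 (0.0522), Vector replicate 2 (0.0592), Vector replicate 3 (0.121), OE-MMP28 replicate 1 (0.0697) or OE-MMP28 replicate 3 (0.101). The log2 fold change stayed between -0.57 and -0.40 throughout.

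INSIG1, the retention factor that is itself a target of SREBP-2, was at 18.1, 13.4 and 19.6 FPKM in Vector replicates 1, 2 and 3 and at 15.1, 13.7 and 9.38 FPKM in OE-MMP28 replicates 1, 2 and 3. The groups overlapped, and the log2 fold change of -0.41 was not called (SE 0.19, adjusted p = 0.117, edgeR), although it passed the threshold without Vector replicate 2 (adjusted p = 0.0290). SCAP, the escort gene, was at 7.47, 7.44 and 6.40 FPKM and at 6.43, 8.31 and 7.90 FPKM in the same order, with overlapping groups and a log2 fold change of 0.10 (95% interval -0.24 to 0.44).

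Synthesis enzymes are classical targets of SREBP-2, which binds sterol regulatory elements together with the factor NF-Y, so the promoter windows of RefSeq (GRCh38.p14, 250 bases before to 50 after each start) were searched. Windows were present for 25 of the 29 genes, and ACAT2, FDFT1, SQLE and ABCG1 had none. The NF-Y box CCAAT, read on both strands, was in a window of 19 of these 25 genes (76.0%), beside 42.9% of the 10272 genes tested that have windows and 34.6% of all 35116 windows. The sterol element TCACNCCAC, read on both strands, was in a window of 1 of the 25 genes (4.0%), SREBF2, beside 1.48% of the genes tested and 1.13% of all windows. Only this form of the sterol element was searched, so elements with other letters would be missed. All matches of the box and the element are letter matches and were not tested as binding sites. Of the lower genes with windows, SREBF2, MVD and IDI1 had the NF-Y box, and of the higher genes PMVK, NR1H2 and ABCA1 had none.

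The stretch from 170 to 71 bases before the start is shown for these 3 lower genes and for PMVK, the enzyme gene that rose, since the matches of SREBF2, MVD and 1 window of IDI1 fall there. A further window of IDI1, not shown, has 2 NF-Y boxes. Capitals mark the letter matches on either strand (CCAAT or ATTGG for NF-Y, and in SREBF2 also the sterol element), and PMVK has none. The stretches lie at chr22:41832935-41833034 (SREBF2, plus strand), chr16:88663162-88663261 (MVD, minus strand), chr10:1048957-1049056 (IDI1, minus strand, the one with most matches of its 3 windows) and chr1:154936790-154936889 (PMVK, minus strand).
SREBF2: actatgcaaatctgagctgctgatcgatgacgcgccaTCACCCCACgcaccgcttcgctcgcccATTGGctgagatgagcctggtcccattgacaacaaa
MVD: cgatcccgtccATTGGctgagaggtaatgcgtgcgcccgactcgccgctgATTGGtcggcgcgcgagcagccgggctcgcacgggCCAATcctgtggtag
IDI1: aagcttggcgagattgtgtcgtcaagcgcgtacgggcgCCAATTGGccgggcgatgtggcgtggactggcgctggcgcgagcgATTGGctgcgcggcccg
PMVK: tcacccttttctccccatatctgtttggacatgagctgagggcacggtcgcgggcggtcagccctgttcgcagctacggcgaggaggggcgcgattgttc

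In SREBF2 the sterol element lies 133 bases before the start and the NF-Y box 106 bases before it. MVD has NF-Y boxes 159, 120 and 85 bases before its start. In IDI1 the boxes at 132 and 129 bases before the start overlap on opposite strands, and another match lies at 87 bases. Most genes with windows that were not called carry the box too, on either side of 0. MVK and NSDHL, both with log2 fold changes above 0, have 5 matches each, the highest number among these windows. Also above 0, MYLIP, DHCR7, SC5D and NR1H3 have the box and SCAP does not. Of the uncalled genes below 0 with windows, only NPC1 and CYP51A1 have none. Whether the box goes with the direction of change was not tested.

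No gene of transport and storage was called in the edgeR test. NPC1, which exports cholesterol from late endosomes and lysosomes, was at 10.3, 9.41 and 9.34 FPKM in Vector replicates 1, 2 and 3 and at 7.22, 8.16 and 6.13 FPKM in OE-MMP28 replicates 1, 2 and 3. The groups did not overlap, and the log2 fold change of -0.42 just missed the threshold (SE 0.15, adjusted p = 0.0512, edgeR). It was called lower in 6 of 17 alternatives, with adjusted p-values of 0.0262 with upper-quartile scaling, 0.0423 with RLE scaling, 0.0253 in DESeq2, 0.0475 in limma voom, 0.0425 with the stricter filter and 0.0381 without mitochondrial genes. STARD4, which carries sterols between membranes, stood at -0.38 (95% interval -0.81 to 0.04), with OE-MMP28 replicate 3 lowest at 3.60 FPKM and the other 5 libraries between 5.70 and 8.61 FPKM. SOAT1, which esterifies cholesterol for storage, stood at -0.27 (95% interval -0.66 to 0.13).

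Of the 5 LXR and efflux genes, NR1H2 and ABCA1 were called higher and the other 3 were not called. NR1H2, the gene of LXR-beta (ENSG00000131408, chr19:50329653-50382982, plus strand), was at 11.7, 11.2 and 11.03 FPKM in Vector replicates 1, 2 and 3 and at 12.7, 17.3 and 18.3 FPKM in OE-MMP28 replicates 1, 2 and 3. The groups did not overlap, and OE-MMP28 replicate 1 lay near the Vector libraries. The log2 fold change was 0.52 (SE 0.17, adjusted p = 0.0278, edgeR). The call was lost without Vector replicate 3 (adjusted p = 0.102), OE-MMP28 replicate 2 (0.152) or OE-MMP28 replicate 3 (0.116). NR1H3, the gene of LXR-alpha, was at 24.7 to 37.0 FPKM in the Vector group and 29.04 to 36.8 FPKM in the OE-MMP28 group, a log2 fold change of 0.05 (95% interval -0.30 to 0.40).

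ABCA1, the exporter that loads cholesterol onto apolipoprotein A-I and a target of the LXR receptors, was weakly expressed (ENSG00000165029, chr9:104781002-104928237, minus strand). It had 19, 38 and 26 counts in Vector replicates 1, 2 and 3 and 97, 46 and 52 counts in OE-MMP28 replicates 1, 2 and 3, which is 0.109, 0.248 and 0.155 FPKM and 0.540, 0.256 and 0.272 FPKM. No overlap was seen between the groups, but Vector replicate 2 lay just under OE-MMP28 replicates 2 and 3. The log2 fold change was 1.07 (SE 0.36, adjusted p = 0.0354, edgeR). Without OE-MMP28 replicate 1 it fell to 0.64 (adjusted p = 0.251), and the call was also lost without Vector replicate 1 (0.83, adjusted p = 0.0936) or Vector replicate 3 (1.01, adjusted p = 0.0888).

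The other LXR targets of the list were not called. MYLIP encodes a ubiquitin ligase that marks lipoprotein receptors for degradation. It was at 4.10, 3.98 and 4.50 FPKM in Vector replicates 1, 2 and 3 and at 6.21, 5.68 and 5.62 FPKM in OE-MMP28 replicates 1, 2 and 3, with no overlap, a log2 fold change of 0.49 and an adjusted p just above the threshold (SE 0.18, adjusted p = 0.0510, edgeR). ABCG1, a second exporter gene, was at 1.69 to 2.61 FPKM and at 2.18 to 2.57 FPKM, with a log2 fold change of 0.16 (95% interval -0.26 to 0.57).

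**Figure D3:**
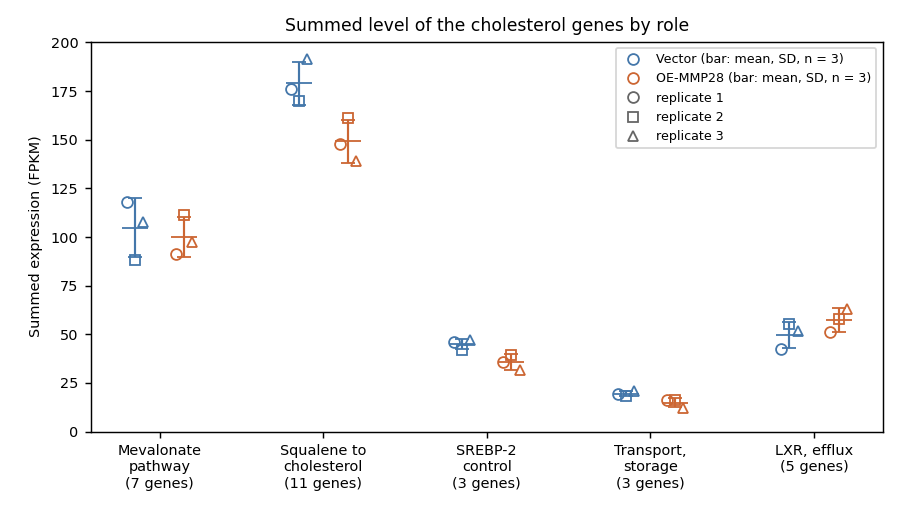
Summed FPKM of the cholesterol genes of each role in each library, with the mean and SD of 3 libraries per group (Vector blue, OE-MMP28 orange). The sums from squalene to cholesterol, of SREBP-2 control and of transport and storage do not overlap between the groups, and the other 2 do.

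Summed over genes, the roles differed in how far the groups lay apart. The 11 enzymes from squalene to cholesterol summed to 179 ± 11.1 FPKM in the Vector group and 149 ± 11.1 FPKM in the OE-MMP28 group (SD, n = 3), a ratio of 0.833. The SREBP-2 genes summed to 45.1 ± 2.71 and 35.6 ± 4.08 FPKM, and the transport and storage genes to 19.4 ± 1.31 and 14.8 ± 2.40 FPKM. In these 3 sums the groups did not overlap. The mevalonate genes summed to 105 ± 15.1 and 99.9 ± 10.4 FPKM, with PMVK higher and MVD and IDI1 lower, and the LXR and efflux genes to 49.7 ± 6.57 and 57.4 ± 6.07 FPKM. A sum is carried by its most abundant genes, and these sums were not tested.

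The order of the libraries within a group was counted for the synthesis enzymes and was not tested. Vector replicate 2 was the lowest of its group in 10 of the 18 enzymes (55.6%), beside 39.3% of all genes tested. Vector replicate 3 was the highest in 10, beside 4352 of all 15319 genes tested. In the OE-MMP28 group replicate 2 was the highest in 9 of 18, beside 3907 of all 15319. It was the lowest in 1 (5.56%), beside 25.3% of all genes. Without Vector replicate 3, the calls among the 29 genes were 0 higher and 2 lower (MVD and FDFT1) in a fit that called 1136 of all genes higher and 1231 lower. Without Vector replicate 2 they were 3 higher and 6 lower, with 1493 and 1436 of all genes. With all libraries 1795 of all genes were called higher and 1784 lower. A limma fit of log2(FPKM + 1), in which ABCA1 fell below the minimum mean of 0.5 FPKM, called none of the other 28 genes higher and MVD and FDFT1 lower (7.14%), beside 6.63% of all genes called higher and 6.34% lower in that fit.

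Neighbouring genes differed in their median fold change from place to place, so each gene was set beside the median log2 fold change of the other genes tested within 5 Mb on either side. The 29 neighbours of IDI1 had a median of -0.57, nearly the value of IDI1 itself. For FDFT1 it was -0.39 (26 neighbours), for MVD -0.30 (84) and for SQLE -0.27 (42). The called genes outside such regions were PMVK (0.08, 177 neighbours), SREBF2 (0.04, 158), NR1H2 (0.03, 221) and ABCA1 (0.04, 26).

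With the neighbours' median subtracted in the edgeR model, 1 gene was called higher (3.45%) and 3 lower (10.3%), beside 7.43% and 8.06% of all genes under the same model. PMVK (0.76, adjusted p = 0.0329) and SREBF2 (-0.48, adjusted p = 0.0310) kept their calls. IDI1 went to -0.03 (adjusted p = 0.939), FDFT1 to -0.27 (0.219), MVD to -0.47 (0.103) and SQLE to -0.47 (0.0939), while NR1H2 (0.49, adjusted p = 0.0526) and ABCA1 (1.03, adjusted p = 0.0578) hardly moved in size. MSMO1 (-0.68, adjusted p = 0.00873) and TM7SF2 (-0.74, adjusted p = 0.0346) gained a call. Their neighbours stood at 0.24 (17 neighbours) and 0.26 (239). The median entered the model as a fixed value, so the adjusted p-values of this model leave out its own uncertainty. On this scale 16 of the 18 synthesis enzymes were below 0, with a median of -0.29 beside -0.0008 for all genes, and the 2 above 0 were PMVK and NSDHL. Which genes of synthesis were called therefore depended on whether a change is read on its own or relative to its neighbourhood, and what moves the neighbourhoods was not tested.

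**Figure D4:**
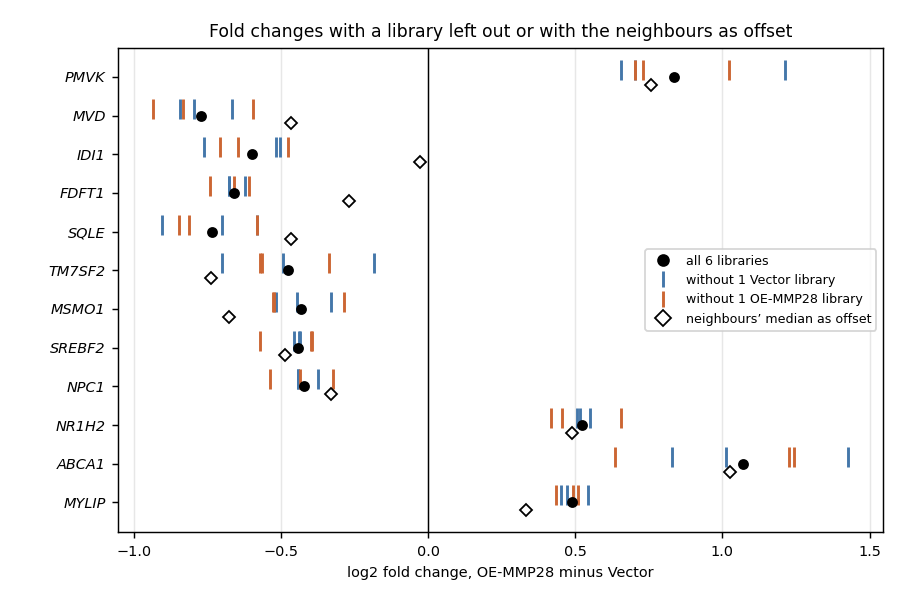
The log2 fold changes (OE-MMP28 minus Vector) of the 8 called cholesterol genes and of MSMO1, NPC1, MYLIP and TM7SF2, which were not called. Values are given with all 6 libraries (dots), with 1 Vector or 1 OE-MMP28 library left out (blue and orange bars) and with the neighbours' median as offset (diamonds). No value crosses 0, ABCA1 ranges from 0.64 to 1.43 as libraries are left out, and the offset brings IDI1 to -0.03.

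The rest of the pathway was read from 50 further genes in 4 lists, of which 47 passed the filter, with 8 called higher and 6 lower and a median log2 fold change of 0.04. The 3 genes that were not tested were the lipoprotein receptor gene VLDLR (1 to 11 counts), the esterifying enzyme gene SOAT2 (0 to 8 counts) and the cholesterol hydroxylase gene CH25H (0 in every library). In either direction 14 of 47 were called, against the 23.4% given above for all genes. The plot of these genes shows each value beside its neighbours.

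**Figure D5:**
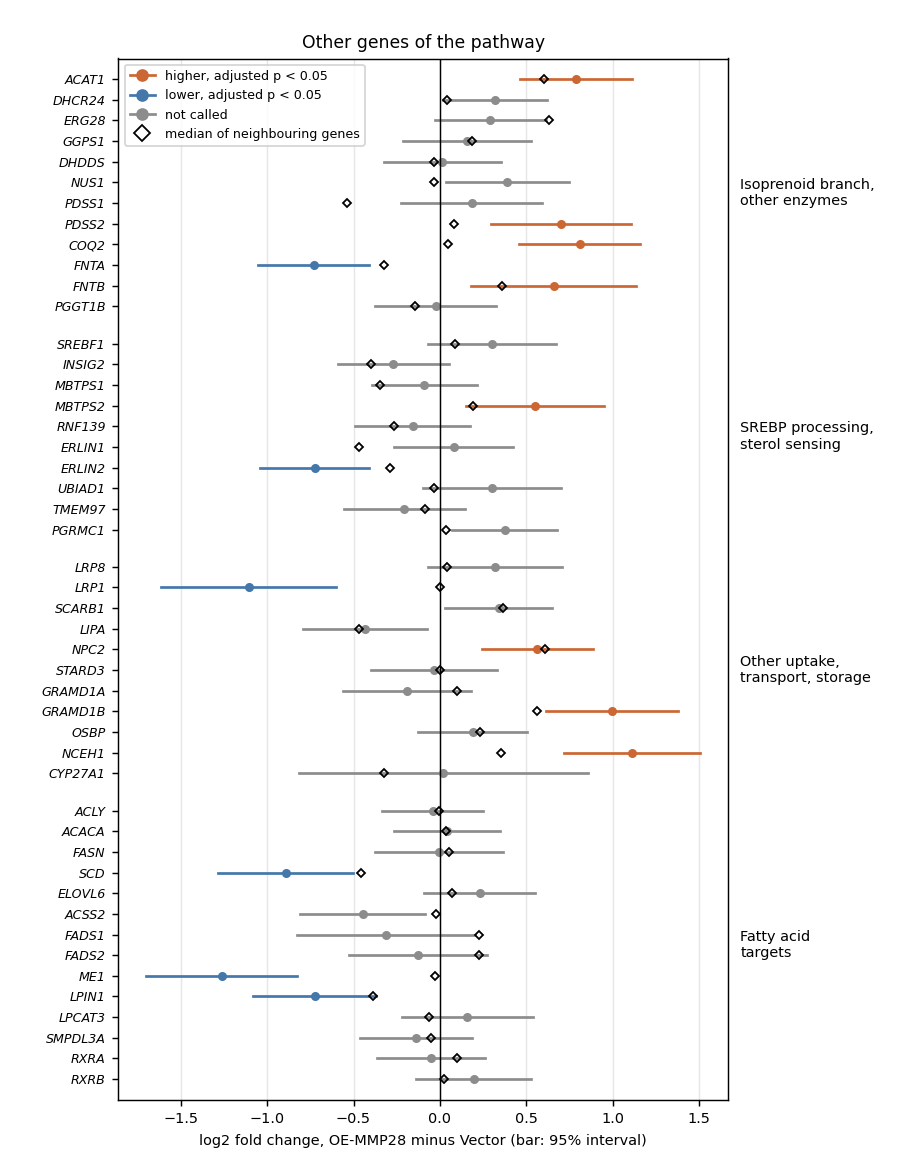
The log2 fold change (OE-MMP28 minus Vector) with its 95% interval of the 47 other pathway genes tested, by list, with the median of the neighbouring genes as open diamonds. COQ2, NCEH1, LRP1 and ME1 are called and lie away from their neighbours, and NPC2 is called and lies on its neighbours' median of 0.61.

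Among 12 genes of the isoprenoid branch and other enzymes, 4 were higher and 1 was lower. COQ2, whose product joins the isoprenoid tail to the ring of coenzyme Q, was at 11.4, 8.35 and 10.6 FPKM in Vector replicates 1, 2 and 3 and at 19.3, 15.6 and 17.8 FPKM in OE-MMP28 replicates 1, 2 and 3, without overlap and with a log2 fold change of 0.81 (SE 0.17, adjusted p = 0.00175, edgeR). PDSS2, a subunit gene of the synthase that makes this tail, rose by 0.70 (adjusted p = 0.0131), and the mitochondrial thiolase gene ACAT1 by 0.79 (adjusted p = 0.00117) with neighbours at 0.60, whose median as offset took it to 0.19 (adjusted p = 0.453). The farnesyltransferase subunits went apart, FNTA at -0.73 (adjusted p = 0.00195) and FNTB at 0.66 (adjusted p = 0.0431). With neighbours at -0.32 and 0.36, the offset took FNTA to -0.41 (adjusted p = 0.0757, edgeR) and FNTB to 0.30 (adjusted p = 0.422), which ended both calls. FNTB is the less abundant of them, at 75 to 169 counts beside 870 to 1702. PDSS2 lost its call without Vector replicate 2 (adjusted p = 0.0523, edgeR) or OE-MMP28 replicate 2 (0.0849). FNTB kept its call without Vector replicate 2 (0.00751) and lost it without Vector replicate 1 (0.0939), Vector replicate 3 (0.197) or any 1 of the OE-MMP28 replicates (0.102 to 0.110).

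Among 10 genes of SREBP processing and sterol sensing, 1 was higher and 1 was lower. MBTPS2, the gene of the second protease that releases SREBPs, stood at 0.55 (adjusted p = 0.0437, edgeR) with groups that overlapped. The offset took it to 0.36 (adjusted p = 0.224), and it lost its call without Vector replicate 2 (0.0999), Vector replicate 3 (0.124), OE-MMP28 replicate 1 (0.147) or OE-MMP28 replicate 2 (0.23). ERLIN2, a gene of protein degradation at the endoplasmic reticulum, was at 9.22, 8.66 and 8.12 FPKM in Vector replicates 1, 2 and 3 and at 5.35, 5.66 and 4.61 FPKM in OE-MMP28 replicates 1, 2 and 3, without overlap and with a log2 fold change of -0.72 (SE 0.15, adjusted p = 0.00189, edgeR). Its neighbours had a median of -0.29, and the offset took it to -0.43 (adjusted p = 0.0579). SREBF1, the gene of the sister factor SREBP-1, was not called (0.30, adjusted p = 0.234).

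Of 14 genes of other uptake, transport and storage 11 were tested, and 3 were higher and 1 lower. NCEH1, which encodes a hydrolase of cholesterol esters, was at 21.2, 11.9 and 14.6 FPKM in Vector replicates 1, 2 and 3 and at 40.9, 33.5 and 28.1 FPKM in OE-MMP28 replicates 1, 2 and 3, a log2 fold change of 1.11 (SE 0.19, adjusted p = 0.000331, edgeR) without overlap. The sterol transfer gene GRAMD1B stood at 1.00 (adjusted p = 0.000655), with neighbours at 0.56, and lost its call with their median as offset (0.43, adjusted p = 0.114). The lysosomal sterol carrier gene NPC2, the partner of NPC1, stood at 0.56 (adjusted p = 0.0119), while its neighbours had a median of 0.61 and the offset took it to -0.05 (adjusted p = 0.876, edgeR). Its call was also lost without Vector replicate 3 (0.0801) or OE-MMP28 replicate 3 (0.0548). LRP1, an endocytic lipoprotein receptor gene, was at 2.80, 6.16 and 3.47 FPKM and at 1.51, 2.59 and 1.62 FPKM, without overlap and with a log2 fold change of -1.11 (SE 0.24, adjusted p = 0.00263).

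Among 14 fatty acid genes driven by SREBP-1 or LXR, together with the RXR partners, none was higher and 3 were lower. ME1, which encodes malic enzyme, a source of NADPH, was at 5.28, 4.39 and 4.41 FPKM in Vector replicates 1, 2 and 3 and at 2.46, 1.57 and 1.798 FPKM in OE-MMP28 replicates 1, 2 and 3, a log2 fold change of -1.26 (SE 0.21, adjusted p = 0.000263, edgeR) without overlap. The stearoyl-CoA desaturase gene SCD stood at -0.89 (adjusted p = 0.00187) and the phosphatidate phosphatase gene LPIN1 at -0.72 (adjusted p = 0.0045), with neighbours at -0.46 and -0.39. The offset ended both calls, with SCD at -0.44 (adjusted p = 0.121, edgeR) and LPIN1 at -0.34 (adjusted p = 0.196). ACLY (-0.04, 95% interval -0.34 to 0.25), ACACA (0.04, -0.27 to 0.35) and FASN (-0.003, -0.37 to 0.37), the enzymes that build palmitate from citrate, were not called.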

How the data were processed

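RNA from AsPC-1 cells (3 Vector and 3 OE-MMP28 libraries) had been sequenced, and groups follow the titles and treatments in the labels. What the authors deposited was 1 table of read counts per gene, unnormalized whole numbers, and FPKM values scaled per library and gene length. HISAT2 2.0.5 and featureCounts 1.5.0-p3 are named in the submitters' processing notes, and the strand setting and handling of multiply matching reads are not given in the sources used here. All 58735 identifiers and coordinates equalled those of GENCODE 29 (GRCh38). The table also held the authors' own fold changes and p-values, which were not used.

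Counts were tested with edgeR 4.0.16 (R 4.3.3): filterByExpr (minimum count 10, minimum total 15), TMM scaling, group as the only term, the quasi-likelihood test and Benjamini-Hochberg adjustment over 15319 genes. Levels are given in FPKM, and overlap of groups was judged on TMM-scaled CPM. Alternatives were upper-quartile and RLE scaling, DESeq2 1.42.0, limma 3.58.1 with voom and on log2(FPKM + 1) and log2(FPKM + 0.1), other filters, the replicate block, counts without mitochondrial genes, the neighbours' median as offset and leaving out each library. All 29 cholesterol genes are accounted for. Those called and those opposite in sign to most of their role are given in every library. From the other lists, called genes were named (others named were chosen after their values were seen), with genes that overlap or copy a cholesterol gene. The genes and lists were chosen with earlier results of these data known. From these lists 1 item is not reported here. The fits were also run on simulated counts in which some genes were changed. That simulation held no shifts shared by neighbouring genes, so it does not test the fits under such shifts. A count of 0 allows up to 3 counts, 0.180 to 0.220 CPM, and such limits cover counting error only. The 95% intervals of log2 fold changes are from the edgeR fit. Promoter windows are from RefSeq (GRCh38.p14).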

Additional observations from a re-analysis of the deposited data

How the results depend on the processing

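Among the 29 genes, 3 were called higher and 5 lower. On log2(FPKM + 1) limma called 0 and 2, and on log2(FPKM + 0.1) 1 (MYLIP, not among the 3) and 2. With the neighbours' median as offset 1 (PMVK) and 3 were called, of which SREBF2 was among the 5 and MSMO1 and TM7SF2 were not. All 8 calls held with upper-quartile scaling (3 and 7 called), DESeq2 (4 and 7), RLE scaling, limma voom and the stricter filter (3 and 6 each), without mitochondrial genes (3 and 7) and with no filter (3 and 5). With 1 library left out the calls ranged from 0 to 3 higher and from 2 to 6 lower. Over all genes tested, 1795 were higher and 1784 lower. These became 1009 and 965 on log2(FPKM + 1), 1000 and 970 on log2(FPKM + 0.1), and 1138 and 1234 with the offset. They were 1541 and 2016 with upper-quartile scaling, 1781 and 1877 in DESeq2, and 1683 and 1879 with RLE scaling. Limma voom gave 1758 and 1719, the stricter filter 1785 and 1828, and no filter 1739 and 1893. Without mitochondrial genes 1612 were higher and 1914 lower, so the background moved with the setting as well. Leave-one-out counts were 985 to 1916 higher and 1044 to 1949 lower. Of the other pathway genes, 5 were higher on either FPKM scale and 5 higher and 2 lower with the offset, and 5 to 7 higher and 6 to 7 lower with 1 library left out. Among the 29 genes and the called genes of the other lists, the offset turned the sign of MVK (-0.12), SC5D (-0.41), DHCR7 (-0.24) and NPC2 (-0.048). It also turned uncalled genes of the other lists, among them ERG28 (0.29 to -0.34) and LIPA (-0.43 to 0.03). Among the 29 genes, leaving out a library turned MVK (-0.025 to 0.20), CYP51A1 (-0.69 to 0.093), SC5D (-0.029 to 0.21) and NR1H3 (-0.10 to 0.17), none of them called. Fits with a library left out rest on 5 libraries by construction, and for the FPKM scales and the offset the cause was not tested.

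The replicate numbers shared by the groups did not pair the libraries: same-numbered libraries had correlations of deviations of 0.02, 0.01 and -0.09. With the replicate block 3 cholesterol genes were higher and 5 lower, and 1844 and 1841 of all genes. At these depths ABCA1, with 19 to 97 counts, is the least precisely measured of the 29 genes.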
